A study of Mus musculus with 15 samples.

Results

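The ErbB receptor genes Erbb4, Erbb2, Erbb3 and Egfr and the neuregulin genes Nrg1, Nrg2, Nrg3 and Nrg4 were examined in interneurons sorted while they migrate through the mouse embryonic cortex. These 8 genes were chosen by name, and each was listed in both count tables of the study, among 26835 genes for Lhx6 and 25714 for Mtg8. The cells were YFP+ cells from the cortex of single E14.5 embryos on a mixed C57BL6/CBA background, and every embryo, control or mutant, carried the Nkx2-1-Cre transgene together with R26R-YFP fl/fl. Nkx2-1 drives Cre in the medial ganglionic eminence (MGE), so that the label follows cells descended from that region and not all cortical interneurons. The Lhx6 table held 4 libraries of Lhx6+/+ embryos and 5 of littermate Lhx6-/- embryos, in which Lhx6 is missing from the germline and thus from every cell of the embryo. The Mtg8 table held 3 libraries of Mtg8+/+ embryos and 3 of littermates labelled Mtg8-/-, a knock-in of LacZ, again in the germline. The question asked of these genes was how they are set in migrating interneurons with and without each factor.

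Neuregulins are EGF-like signals that bind ErbB receptor tyrosine kinases. ERBB4 binds neuregulins and has an active kinase, ERBB3 binds them but has little kinase activity of its own, ERBB2 has no known ligand and works as a partner of the others, and EGFR answers EGF and its relatives. In the embryonic forebrain, ERBB4 is carried by tangentially migrating interneurons, and neuregulin 1 made along their route and in the cortex is known to guide them.

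Depth ranged from 12218422 to 22053032 reads per library. The targeted gene was examined first. Lhx6 fell from 5812 to 8441 normalized counts in Lhx6 controls to between 236 and 495 in Lhx6 mutants. Runx1t1, the gene of MTG8, was at 7938 to 10265 in Mtg8 controls and at 12250 to 13934 in the group labelled Mtg8 mutant, which is higher in 3 of 3. In the Lhx6 table, where it was not the targeted gene, Runx1t1 was at 6394 to 8945 in controls and 12227 to 26527 in mutants. Those groups did not overlap either, as for 6.22% of all genes tested there. Counts summed over a gene do not show which exons were read, so they cannot decide whether the knock-in allele is present. Since the count did not fall, these are called libraries labelled Mtg8 mutant throughout, and each direction given for them rests on that label. Sst, a peptide of MGE interneurons, was at 14420 to 18501 in Mtg8 controls. The labelled mutants had it at 5683 to 8048 (limma, adjusted p = 0.0713). Npy was at 5037 to 6247 in the controls and at 1952 to 3577 in the labelled mutants (limma, adjusted p = 0.580). Both genes were thus lower in the labelled mutants, without overlap, and neither passed the limma threshold, which 0 of 16132 genes passed in this table. With DESeq2, the paper called both Sst and Npy lower in its sequenced Mtg8 mutant cells. By in situ hybridization, the paper counted fewer Sst and Npy cells in Mtg8-/- embryos. The direction here is the same when the labels are taken as given. Whether the labels are right was not tested. Of 14 MGE interneuron markers, 14 passed the filter on low values in both tables, with Gad1, which makes GABA, at 1719 or above in every library, and in Lhx6 mutants 2 of them were higher and 5 lower (limma), where 1.71% of all genes tested were called. Markers of cortical pyramidal neurons were also present, with summed levels of 12238 to 21009 in Lhx6 libraries and 5769 to 22872 in those of the Mtg8 table. The summed level of 7 oligodendrocyte precursor markers was 319 to 502 in Lhx6 controls, 99.8 to 459 in Lhx6 mutants, 545 to 879 in Mtg8 controls and 342 to 915 in the labelled mutants. Lhfpl3 gave most of it in the controls, at 230 to 389.7 for Lhx6 and 515 to 558.5 for Mtg8, and fell in Lhx6 mutants (limma, log2 fold change -2.03, adjusted p = 0.00692). Pdgfra had log2 fold changes of 2.45 and 2.05 and did not pass (limma, adjusted p = 0.305 and 0.859), and Sox10, shared with the Schwann cell list, was at most 22.4 and 9.78. In these bulk samples, fewer cells of a type and less RNA per cell cannot be told apart.

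Erbb4 stood far above the other 7 genes in every group. Levels were compared between genes as normalized counts per kilobase of exon, since longer transcripts yield more reads. The length used was that of all merged exons of a gene, not of the transcripts present. A gene with many alternative exons may thus be placed too low, and orders, shares and ratios between genes depend on the annotation. On that scale Erbb4 averaged 210.1 ± 31.4 (SD, n = 4) in Lhx6 controls, 221.5 ± 67.3 (n = 5) in Lhx6 mutants, 360.1 ± 57.9 (n = 3) in Mtg8 controls and 243.7 ± 42.8 (n = 3) in the group labelled Mtg8 mutant. It was 11.6 times the next gene, Nrg1, in Lhx6 controls, 14.95 times Nrg3 in Lhx6 mutants, 19.0 times Nrg3 in Mtg8 controls and 9.58 times Nrg1 in the group labelled Mtg8 mutant. The ranges of Erbb4 and of the next gene did not overlap in any of the 4 groups. Erbb4 lay above 74.2% of all tested genes per kilobase in Lhx6 controls and above 80.7% in Mtg8 controls. It gave between 94.3% and 99.4% of the summed level per kilobase of the 4 receptors over all 15 libraries.

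**Figure D1:**
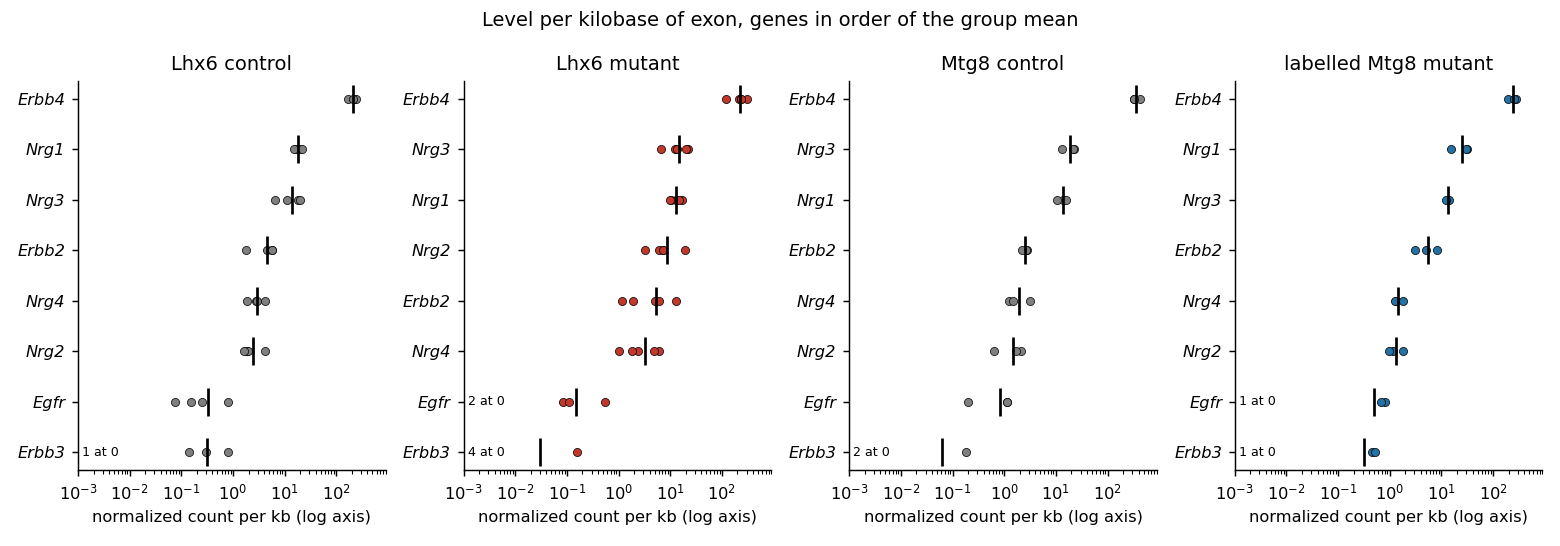
Normalized counts per kilobase of exon (log axis) of the 8 genes in each group, ordered from top to bottom by the group mean. Points are libraries, upright bars are group means, and libraries at 0 are counted in words; Erbb4 stands above the next gene in each of the 4 groups, and Egfr and Erbb3 are at the bottom in each.

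The order below Erbb4 was Nrg1, Nrg3, Erbb2, Nrg4, Nrg2, Egfr and Erbb3 in Lhx6 controls, and Nrg3, Nrg1, Erbb2, Nrg4, Nrg2, Egfr and Erbb3 in Mtg8 controls. Nrg1 at 18.1 ± 2.96 and Nrg3 at 14.0 ± 6.38 per kilobase in Lhx6 controls had overlapping ranges, as did Nrg1 at 13.5 ± 2.83 and Nrg3 at 19.0 ± 5.06 in Mtg8 controls. Neither can be placed above the other. Erbb2, Nrg4 and Nrg2 followed with overlapping ranges between neighbours in both control groups. In the libraries labelled Mtg8 mutant, Nrg1 at 25.4 ± 8.56 lay apart from Nrg3 at 13.3 ± 1.10 without overlap of the ranges. Egfr and Erbb3 came last in every group, with means of at most 0.817 and 0.322 per kilobase. Each of these comparisons was made within a group, because the tables were normalized separately.

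Erbb4, the neuregulin receptor of these cells, lies on chr1:68032186-69108059 of GRCm38 on the minus strand, a gene of 1076 kb with 12.355 kb of merged exon in the count tables. Erbb2 lies on chr11:98412470-98437716 on the plus strand, with 5.21 kb of exon, of which 9 bases are shared with Mien1 on the minus strand. These are the 2 members for which the libraries labelled Mtg8 mutant lay wholly apart from their controls, as they did for 10.2% of all genes tested in that table, and for that reason the 250 bases before each RefSeq transcription start (GRCm38.p6) are shown, 5′ to 3′ on the strand of the gene, with CG dinucleotides in capitals. The first covers chr1:69108060-69108309 and the second chr11:98412234-98412483. The second ends just inside the gene as placed above, because the RefSeq start of Erbb2 lies downstream of the start in the count tables.
Erbb4: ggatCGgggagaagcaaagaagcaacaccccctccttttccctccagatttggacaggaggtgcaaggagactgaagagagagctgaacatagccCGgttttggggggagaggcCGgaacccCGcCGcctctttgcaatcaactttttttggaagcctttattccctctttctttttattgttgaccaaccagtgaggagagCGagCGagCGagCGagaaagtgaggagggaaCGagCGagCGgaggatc
Erbb2: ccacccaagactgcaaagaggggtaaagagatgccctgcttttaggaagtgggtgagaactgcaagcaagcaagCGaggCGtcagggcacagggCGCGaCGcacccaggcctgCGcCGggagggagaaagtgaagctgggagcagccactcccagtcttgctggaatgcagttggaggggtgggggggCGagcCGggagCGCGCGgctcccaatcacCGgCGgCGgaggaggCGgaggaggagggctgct
The Erbb4 stretch held 12 CG dinucleotides and was 54% G and C, and that of Erbb2 held 16 and was 66% G and C, against a median of 6 CG dinucleotides over 32851 RefSeq promoters of the same length. Neither stretch held the letters TAATTA, a core read by many homeodomain proteins, or CAGCTG, an E-box. Both motifs read the same on either strand and cannot overlap each other. They were present in 4.84% and 13% of the 32851 promoters.

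In Lhx6 mutants, Erbb4 did not differ from controls by more than the spread between embryos. Erbb4 was at 2693, 2065, 2993 and 2631 normalized counts in Lhx6 controls 1, 2, 3 and 4. It was at 3764, 2677, 2864, 2929 and 1452 in Lhx6 mutants 1, 2, 3, 5 and 6. The highest and the lowest library were both mutants, mutant 1 and mutant 6, and the groups overlapped. Its log2 fold change on log2(normalized count + 1) was 0.02, with a 95% interval from -0.47 to 0.52 (limma, adjusted p = 0.969). Library names fell into a dated and an undated style, and mutant 6 was the only mutant that shared the undated style of the 4 controls. Within that style its log2 difference from the controls was -0.82, with 1 mutant library, and -0.70 from controls 1 and 2, which share the stem of its name, and without mutant 6 the log2 fold change over the rest was 0.24. What the names stand for is not given in the sources used here, so that style and genotype cannot be told apart except through this library.

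In the Mtg8 table, Erbb4 was lower in each library labelled Mtg8 mutant than in each control, but the difference did not pass the threshold over all genes. It was at 4101, 5271 and 3974 normalized counts in Mtg8 controls 1, 2 and 4. It was at 3442, 2420 and 3170 in labelled mutants 2, 3 and 4. The groups did not overlap, and the mean of the labelled mutants was 67.7% of the control mean. Erbb4 had a log2 fold change of -0.57 ± 0.20 (SE), with a 95% interval from -1.0 to -0.14 (limma, adjusted p = 0.859 over 16132 genes). The adjusted p ranged from 0.211 to 1.0 over the alternatives tried. The exact permutation test, two-sided, gave p = 0.1, the smallest that 3 against 3 libraries allow. The direction was the same within both styles of library name, at -0.43 in the dated libraries and -0.52 in the undated ones. The summed level of the 14 MGE interneuron markers was 78055 to 85818 in Mtg8 controls and 49982 to 66233 in the labelled mutants, with 2 of 14 log2 fold changes above 0. Of the 14, 6 were at an unadjusted p under 0.05, as were 886 of all 16132 genes tested, 6 had groups without overlap, where 10.2% of all genes did, and 0 passed the threshold. Its part in the Erbb4 difference was not tested.

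Most genes with long merged exons and high counts also had a negative log2 fold change in this table. This class was chosen after the values were seen. Reads on genes with at least 10000 bases of exon made up 10.4% to 11.2% of the signal in Mtg8 controls, 10.95% and 10.84% in labelled mutants 2 and 4, and 8.68% in labelled mutant 3, which was also the library with the lowest Erbb4. Of 496 such genes with a mean of at least 1000 normalized counts, 400 had a log2 fold change below 0, and their median was -0.22, against -0.01 over all genes tested. Erbb4 was below that median, with 29 of the 496 genes (5.85%) lower still. The part of exon length in the Erbb4 difference was not tested. In the Lhx6 table, the median of 443 such genes was 0.18, and 147 of them were lower than Erbb4.

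Erbb2, the receptor partner without a ligand of its own, was low in all groups. In Lhx6 controls it ranged from 9.41 to 30.1 normalized counts with a median of 26.8, and in Lhx6 mutants from 6.19 to 67.6 with a median of 26.08, so that the mutants covered the whole range of the controls. The log2 fold change was -0.05, with a 95% interval from -1.48 to 1.38 (limma, adjusted p = 0.979), an interval too wide to tell a fall from a rise. Mutant 6 differed on the log2 scale by -1.03 from the controls, all with undated names, and by -1.36 from those of its name stem. Among Mtg8 libraries Erbb2 was at 14.5, 13.9 and 11.7 in controls 1, 2 and 4 and at 15.9, 25.7 and 42.8 in labelled mutants 2, 3 and 4. The groups did not overlap, but labelled mutant 2 lay above control 1 by little more than the value of 1 read. The log2 fold change of 0.92 had a 95% interval from -0.15 to 1.98 and did not pass the test (limma, adjusted p = 0.859). It was 0.15 within the dated and 1.43 within the undated library names, and 0.57 without labelled mutant 4, the highest library. Of 9 radial glia markers, 8 had a log2 fold change above 0, Sox2 had -0.34, 5 were at an unadjusted p under 0.05, as were 886 of all 16132 genes tested, and 0 passed the threshold. Their summed level was 6744 to 8465 in Mtg8 controls and 9189 to 13696 in the labelled mutants, without overlap. Of 6 tested oligodendrocyte precursor markers, 5 had a log2 fold change above 0, Lhfpl3 had -0.72, and 0 passed. At an unadjusted p under 0.05 were 3, namely Pdgfra, Olig2 and Lhfpl3, as were 886 of all 16132 genes tested. Among the 5, Olig2 and Gpr17 had control means of 3.96 and 7.41, against 17.7 and 19.1 in the labelled mutants. They reached the filter only through the labelled mutants, so no rise can be read from their part in these counts. The part of either list in the Erbb2 values was not tested.

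Erbb3, the partner that binds neuregulins, was at the limit of detection. It had 8 reads over the 4 Lhx6 control libraries, 1 over the 5 Lhx6 mutants, 1 over the 3 Mtg8 controls and 7 over the 3 labelled mutants. Egfr, the receptor of EGF and related ligands, had 16, 7, 27 and 18 reads over the same groups. Neither gene reached the filter of a mean of 10 normalized counts in either table. A library without a read allows up to 3 reads, which is 2.29 to 3.71 normalized counts depending on the library and covers counting error only. The highest Erbb3 value was 4.81 normalized counts, from 5 reads in Lhx6 control 1, and no difference between groups was detectable at this depth.

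**Figure D2:**
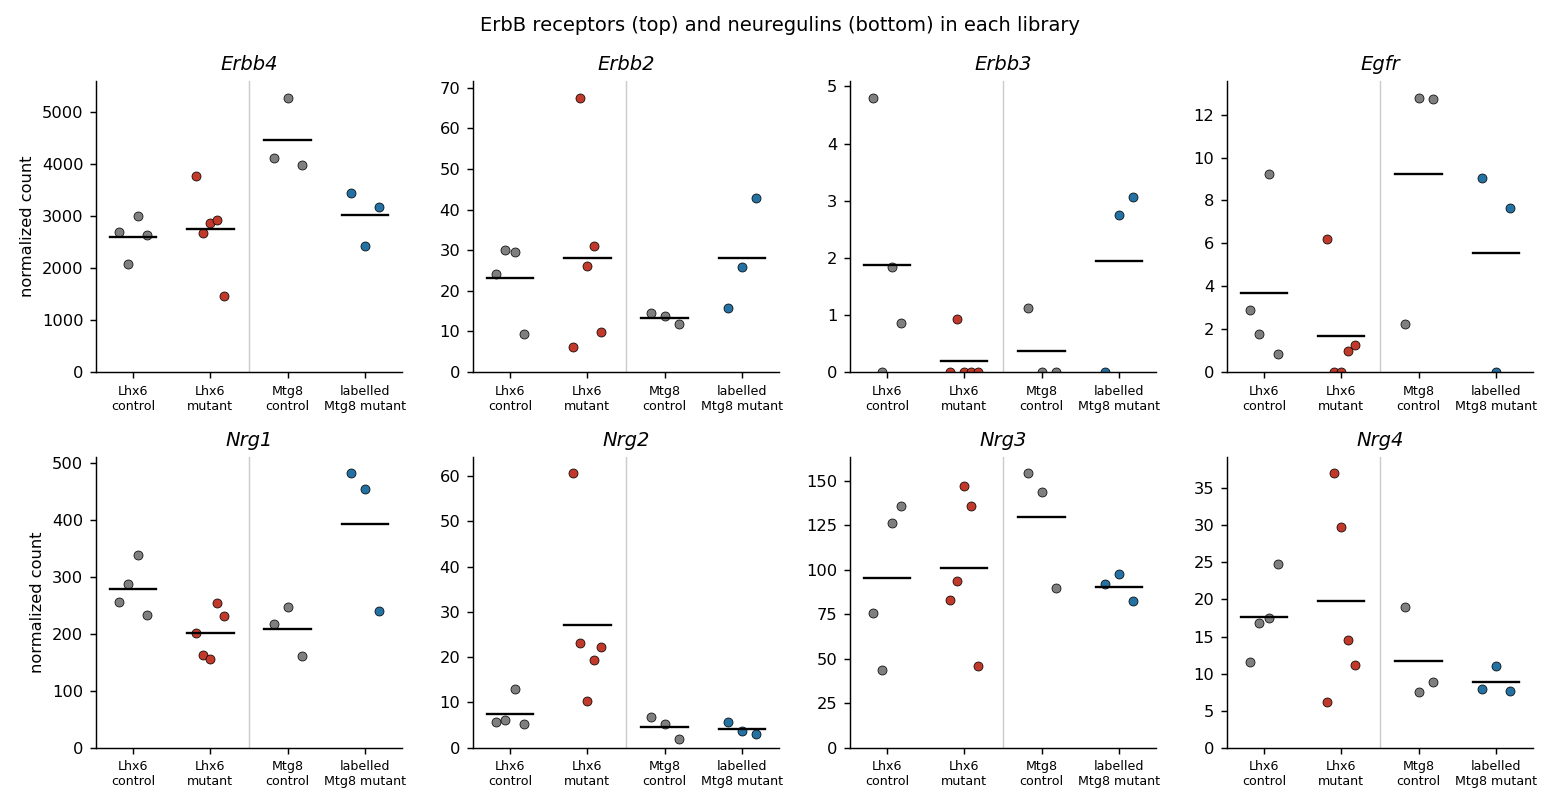
Normalized counts (linear axes from 0) of the 4 receptors in the upper row and the 4 neuregulins in the lower row; points are libraries and bars group means. The 3 libraries labelled Mtg8 mutant lie below the 3 controls for Erbb4, while the groups of Nrg1 overlap in both tables, with 4 of 5 Lhx6 mutants below the controls and 2 of 3 labelled Mtg8 mutants above them.

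Among the ligands, Nrg1, the neuregulin with known roles in interneuron guidance, had different directions in the 2 tables, and neither difference passed the threshold over all genes. The gene spans chr8:31814551-32884797 on the minus strand with 15.433 kb of exon in the count tables. An earlier model of it in GENCODE M21, which ends at 32884029, has 18 annotated transcripts. A count over the gene does not tell membrane-bound from secreted forms. In Lhx6 controls 1, 2, 3 and 4 it was at 256, 288, 338 and 233 normalized counts. In Lhx6 mutants 1, 2, 3, 5 and 6 it was at 202, 163, 156, 255 and 232. Mutants 1, 2, 3 and 6 lay below every control, mutant 6 by less than the value of 1 of its reads, while mutant 5 was inside the control range. The mean was 72.2% of the control mean, and the log2 fold change was -0.48 ± 0.21 (SE), with a 95% interval from -0.94 to -0.02 (limma, adjusted p = 0.371). The exact permutation test gave p = 0.0317, where 0.0159 is the smallest that 4 against 5 libraries allow. Within the undated library names, the log2 difference of mutant 6 from the controls was -0.25. The summed level of the 10 pyramidal neuron markers was 15232 to 21009 in Lhx6 controls and 12238 to 16648 in Lhx6 mutants, with 4 of 10 log2 fold changes above 0, 4 of 10 at an unadjusted p under 0.05, as were 2132 of all 16727 genes tested, and 0 past the threshold, and its part in the Nrg1 values was not tested.

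In the Mtg8 table, Nrg1 was at 217, 247 and 161 normalized counts in controls 1, 2 and 4 and at 483, 454 and 241 in labelled mutants 2, 3 and 4. Labelled mutants 2 and 3 lay well above every control, while labelled mutant 4 was just inside the control range. This gave a log2 fold change of 0.87 ± 0.30 (SE), with a 95% interval from 0.21 to 1.52 (limma, adjusted p = 0.859), and the exact permutation test gave p = 0.2. It was 1.056 within the dated and 1.03 within the undated library names. The adjusted p ranged from 0.311 to 1.0 over the alternatives. Of 10 pyramidal neuron markers, 10 had a log2 fold change above 0, 4 were at an unadjusted p under 0.05, as were 886 of all 16132 genes tested, and 0 passed the threshold. Their summed level was 10562, 14088 and 5769 in controls 1, 2 and 4 and 22872, 11835 and 9033 in labelled mutants 2, 3 and 4, so that the groups overlapped. Neurod2, named after its values were seen for the smallest p of that list, was at 338 to 614 in controls and at 945 to 1051 in the labelled mutants. The summed level of the 9 radial glia markers was 6744 to 8465 in controls and 9189 to 13696 in the labelled mutants, without overlap. The part of either list in the Nrg1 values was not tested. The tables share no samples, and the difference between their Nrg1 changes was not tested.

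Nrg2 had very low counts, and in the Lhx6 table it reached the filter only through the mutants, with a mean of 7.50 ± 3.62 in controls and 27.1 ± 19.4 in mutants. Its place among the tested genes thus rests on the same difference as its fold change. It lies on chr18:36017652-36197380 on the minus strand. In Lhx6 controls 1, 2, 3 and 4 it was at 5.77, 6.2, 12.9 and 5.13 normalized counts, which are 6 to 14 reads. In Lhx6 mutants 1, 2, 3, 5 and 6 it was at 60.6, 23.1, 10.2, 19.4 and 22.3, which are 11 to 49 reads. Mutant 3 lay below control 3, and the other 4 mutants lay above every control. Its log2 fold change was 1.58 ± 0.58 (SE), with a 95% interval from 0.32 to 2.84 (limma, adjusted p = 0.266). The log2 fold change was 0.98 with a pseudocount of 10 and 1.85 with DESeq2 on recovered reads. The adjusted p was 0.0742 with DESeq2 and ranged from there to 1.0 over the alternatives. Within the undated library names, mutant 6 was higher than the controls by 1.54 on the log2 scale. Among Mtg8 libraries Nrg2 was at 1.96 to 6.71 in controls and 3.06 to 5.66 in the labelled mutants, and its mean over that table was under the filter.

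Nrg3, a neuregulin that acts on ERBB4, had overlapping groups in both tables. It lies on chr14:38368952-39473088 on the minus strand. It ranged from 43.4 to 136 normalized counts with a median of 101.1 in Lhx6 controls, and from 45.8 to 147 with a median of 93.5 in Lhx6 mutants, with a log2 fold change of 0.10 and a 95% interval from -0.78 to 0.99 (limma, adjusted p = 0.924). Among Mtg8 libraries it was at 154, 144 and 90.0 in controls 1, 2 and 4 and at 91.8, 97.4 and 82.6 in the labelled mutants 2, 3 and 4. Control 4 lay among the labelled mutants, and the log2 fold change of -0.47 had a 95% interval from -1.13 to 0.18 (limma, adjusted p = 0.866). Within the undated library names, which hold control 4, that difference was -0.0049, against -0.69 within the dated ones, and without control 4 the log2 fold change was -0.72. For Lhx6 mutant 6 the difference was -0.91 from the 4 controls and -0.32 from controls 1 and 2, which share its name stem.

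Nrg4, another ligand of ERBB4, was low throughout. It lies on chr9:55220222-55326844 on the minus strand and shares 368 bases of exon with Fbxo22 on the plus strand; whether counting used strand is not given in the sources used here, so reads of the 2 genes may not be told apart. It ranged from 11.5 to 24.8 normalized counts in Lhx6 controls and from 6.19 to 37.0 in Lhx6 mutants, with a log2 fold change of -0.06 and a 95% interval from -1.29 to 1.18 (limma, adjusted p = 0.972). Mtg8 libraries held it at 7.47 to 19.0 in controls and 7.64 to 11.03 in labelled mutants, with a log2 fold change of -0.28 and a 95% interval from -1.55 to 0.99 (limma, adjusted p = 0.956). Within the undated names the log2 difference of Lhx6 mutant 6 was -0.57 from the 4 controls and -0.30 from the 2 of its name stem, and for Mtg8 it was -0.54 within the dated and 0.06 within the undated names.

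Counted over the family, 6 of the 8 genes passed the filter for Lhx6 and 5 for Mtg8. Of the 6 in the Lhx6 table, 0 passed the adjusted threshold by limma, where 1.71% of all genes tested did, and Nrg1 was at an unadjusted p under 0.05, as were 2132 of 16727 genes. Nrg2 was too, but had passed the filter only through the mutants. Groups did not overlap for 0 of the 6, where 6.22% of all genes tested did not. Of the 5 in the Mtg8 table, 0 passed, where the share over all genes tested was 0% by limma, and Erbb4 and Nrg1 were at an unadjusted p under 0.05. In that table limma called 0 of 16132 genes, with 886 at an unadjusted p under 0.05, edgeR called 1 and DESeq2 called 31. edgeR and DESeq2 called 0 members in either table.

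**Figure D3:**
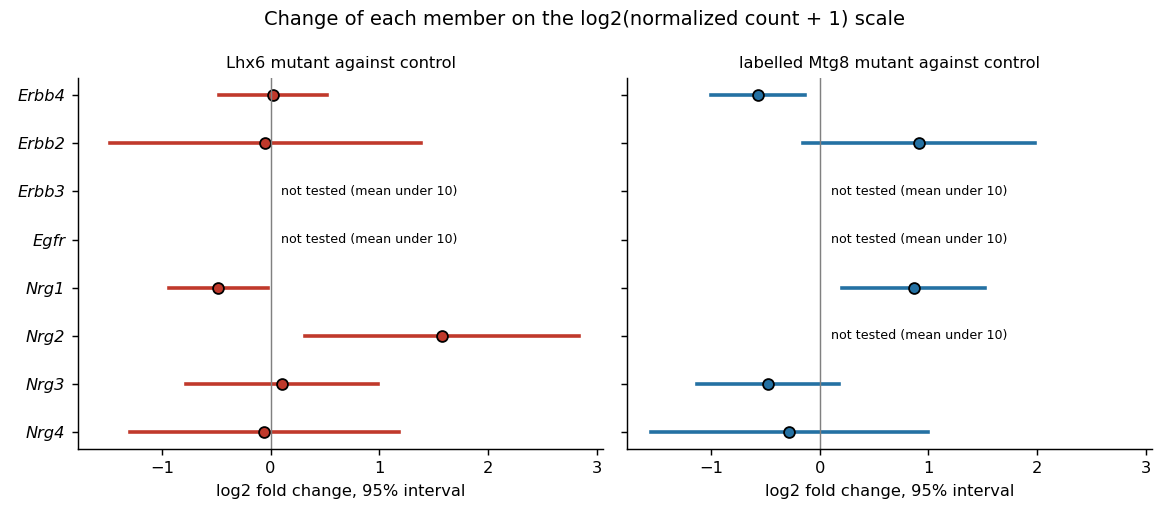
Log2 fold change (points) with its 95% interval from limma (lines) for each member that reached a mean of 10 normalized counts, with Lhx6 mutants on the left and libraries labelled Mtg8 mutant on the right. Before adjustment over all genes, the intervals of Nrg1 on the left and of Erbb4 and Nrg1 on the right do not cross 0, nor does that of Nrg2 on the left, a gene shown only because its mutant mean of 27.1 lifted it over the filter.

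The balance of receptor and ligand message was set out by library. This ratio was chosen after the values were seen. Erbb4 per kilobase over Nrg1 per kilobase was 23.6, 26.6 and 30.8 in Mtg8 controls 1, 2 and 4 and 8.91, 6.66 and 16.4 in the labelled mutants 2, 3 and 4. All labelled mutants were below all controls, which follows from the values of Erbb4 and Nrg1 given above, with a mean log2 difference of -1.44. In Lhx6 controls the ratio was 8.96 to 14.1, and in Lhx6 mutants 1, 2, 3, 5 and 6 it was 23.3, 20.53, 23, 14.4 and 7.84. Mutant 6 was below every control and the other 4 mutants above, with a mean log2 difference of 0.51. Summed over the 4 receptors and the 4 neuregulins, the ratio overlapped between groups in both tables: it was 7.99 to 12.6 in Mtg8 controls and 4.31 to 8.88 in the labelled mutants, and 5.25 to 7.11 in Lhx6 controls and 3.9 to 6.72 in Lhx6 mutants, with mean log2 differences of -0.75 and -0.08. Exact permutation tests of both ratios were run, and none had a p under 0.05, which 3 against 3 libraries cannot reach. Their p-values are not given as support, because the ratios were formed from members whose values had been seen. Nrg1 made up 37.0% to 62.7% of the summed neuregulins per kilobase in Lhx6 controls and 25.3% to 48.9% in Lhx6 mutants. It made up 33.5% to 40.6% in Mtg8 controls and 52.1% to 65.4% in the labelled mutants. These shares were not tested apart from their members.

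**Figure D4:**
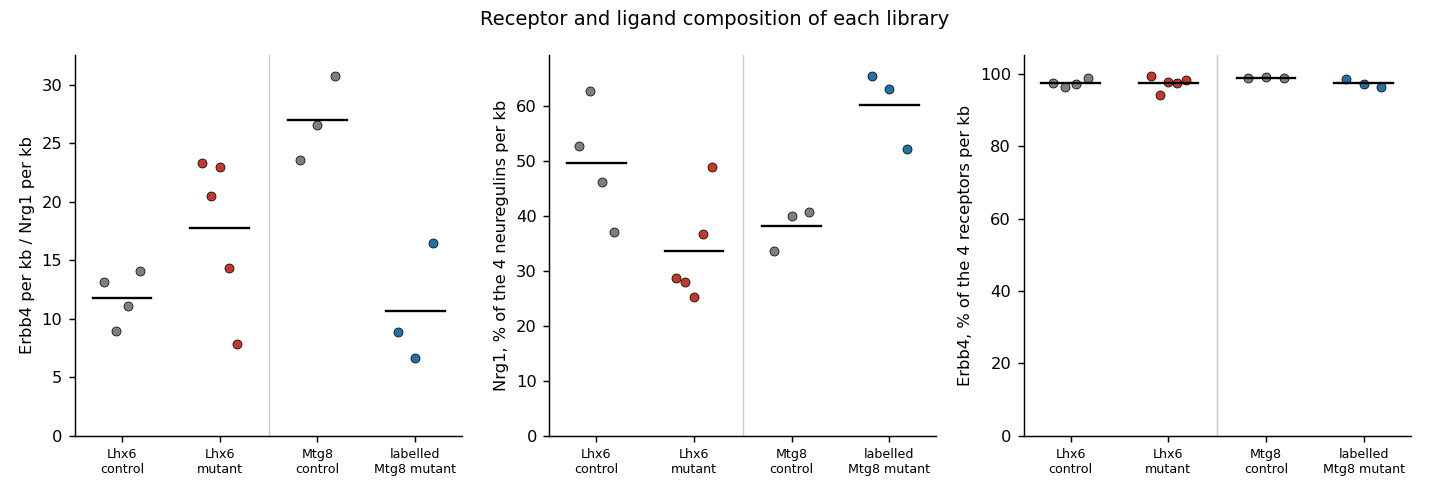
Per library, the ratio of Erbb4 to Nrg1 per kilobase, the share of Nrg1 in the 4 neuregulins and the share of Erbb4 in the 4 receptors (percent of the summed normalized counts per kilobase); points are libraries and bars group means. The ratio in the libraries labelled Mtg8 mutant is 16.4 or less, below the controls at 23.6 or more, and Erbb4 is at 94.3% or more of the receptors in every library.

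Erbb4 and Nrg1 were the 2 members with a mean of at least 100 normalized counts in both tables. The genes most like each were found among 10224 genes by the Pearson correlation of deviations from the group mean, averaged over the tables. For Erbb4 these were Pum2, Vps13b and Myo9a, with mean correlations of 0.942, 0.935 and 0.935 over 9 Lhx6 and 6 Mtg8 libraries. For Nrg1 they were Snx10, Kat2b and Zfp598, at 0.913, 0.876 and 0.873. The merged exons of Vps13b and Myo9a measure 21.273 and 13.034 kb, near or above the 12.355 kb of Erbb4, and those of Pum2 7.26 kb. The points of these correlations share libraries, and with them depth and RNA quality, so they are descriptions only.

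The other genes of the pathway were read in lists that follow a signal from ligand to target. Over all genes tested the median log2 fold change was -0.04 for Lhx6 and -0.01 for Mtg8, and list medians are given in that order. Other EGF-family ligands had 6 tested genes in each table with medians of 0.35 and -0.31, and 0 passed by limma. Of these, 2 and 0 were at an unadjusted p under 0.05, as were 2132 of all 16727 and 886 of all 16132 genes tested. Tmeff2, a membrane protein with an EGF-like domain, came nearest in the Lhx6 table, at 207 ± 46.6 in controls and 417 ± 97.2 in mutants (limma, log2 fold change 1.0, adjusted p = 0.0520). Hbegf, which encodes heparin-binding EGF, came nearest in the Mtg8 table, at 234 ± 10.6 in controls and 175 ± 48.7 in labelled mutants (limma, adjusted p = 0.866). In the Lhx6 table Hbegf had the other direction, at 171 ± 12.9 in controls and 329 ± 103 in mutants, without overlap (limma, log2 fold change 0.88, adjusted p = 0.101). Of 5 proteases that can release ligands from the membrane, 0 passed in either table, the medians were 0.17 and -0.01, and Bace1, which cleaves neuregulin 1, had the smallest p in both. Its log2 fold change was 0.38 in the Lhx6 table (limma, adjusted p = 0.396) and -0.32 in the Mtg8 table (limma, adjusted p = 0.867).

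Inside the cell, the list of adaptors and kinases had 30 tested genes in each table, with medians of 0.06 and 0.07. Pik3r1, a regulatory subunit of phosphoinositide 3-kinase, rose in Lhx6 mutants from 464 ± 74.0 to 798 ± 142 normalized counts (limma, log2 fold change 0.77, adjusted p = 0.0472), without overlap of the groups. That call sat at the threshold and was lost under 15 of 21 alternatives, with the log2 fold change between 0.45 and 0.87. Pik3r1 in the Mtg8 table had a log2 fold change of -0.09, and 0 of 30 genes passed by limma, with 0 at an unadjusted p under 0.05. Of 14 receptor partners and inhibitors, 0 passed in either table by limma, with medians of 0.18 and -0.21. At an unadjusted p under 0.05 were 3 and 0 of them, and 2132 of all 16727 and 886 of all 16132 genes tested. Ptprz1, a receptor phosphatase, had the smallest p in the Lhx6 table, with a log2 fold change of 0.53 (limma, adjusted p = 0.171), and Lrig1, an inhibitor of ErbB receptors, had it in the Mtg8 table, with -0.87 (limma, adjusted p = 0.859).

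Of the feedback genes and targets of receptor tyrosine kinase signalling, 2 of 12 tested changed in Lhx6 mutants, in opposite directions, where 1.71% of all genes tested were called, and the median of the list was -0.21. Dusp4, a phosphatase of MAP kinases, rose from 356 ± 72.5 to 1109 ± 650 normalized counts (limma, log2 fold change 1.49, adjusted p = 0.0370), and the call was lost under 10 of 21 alternatives, a threshold of 0.01 among them, with the log2 fold change between 1.20 and 1.72. Etv5, an ETS transcription factor downstream of FGF and other receptor kinases, fell from 931 ± 119 to 415 ± 131 (limma, log2 fold change -1.22, adjusted p = 0.0192), and the call was lost under 8 of 21, with the log2 fold change between -1.34 and -1.03. Both genes had groups without overlap. Etv5 in the Mtg8 table was at 2049 to 2926 in controls and at 1391 to 1689 in the labelled mutants, again without overlap, with a log2 fold change of -0.58 (limma, adjusted p = 0.859), and Dusp4 was at 627 to 1310 and 334 to 1459. Etv1, a relative of Etv5, was at 584 to 763 and 849 to 1219 there, without overlap in the other direction, and at 298 to 393 in Lhx6 controls and 230 to 279.5 in Lhx6 mutants (limma, adjusted p = 0.859 and 0.195, named after its values were seen). Groups did not overlap for 4 of the 13 genes tested in the Mtg8 table, where they did not for 10.2% of all genes tested. Of those 13, 0 passed by limma, and 3 were at an unadjusted p under 0.05, as were 886 of all 16132 genes tested. The median of the list was 0.60, against -0.01 over all genes, with 8 of the 13 above 0. It was the value of Spry4, and the next lower value was 0.03 for Spry1. Etv4 was at a mean of 7.08 in controls and 15.4 in the labelled mutants, and reached the filter only through the latter. The median thus rests in part on the filter, and no shift of the list can be read from it. The summed level of the 9 radial glia markers was 6744 to 8465 in Mtg8 controls and 9189 to 13696 in the labelled mutants, without overlap. Their part in the values of this list was not tested. The smallest p there was that of Ier2, an immediate-early gene named after its values were seen, with a log2 fold change of 2.95 (limma, adjusted p = 0.636).

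Other receptors of migrating interneurons were read beside Erbb4. Of 16 tested in Lhx6 mutants, 4 rose and 0 fell, where 1.71% of all genes tested were called in either direction, and the median was 0.27. The chemokine receptors Ackr3 and Cxcr4 had negative values that did not pass, and were named after their values were seen. Ackr3 was at 580 ± 122 in controls and 238 ± 156 in mutants (limma, log2 fold change -1.45, adjusted p = 0.0519), and Cxcr4 had a log2 fold change of -1.07 (limma, adjusted p = 0.270). Robo2, a receptor of the repellent SLIT proteins, rose from 1526 ± 246 to 6043 ± 1663 normalized counts (limma, log2 fold change 1.95, adjusted p = 1.69e-04), and Robo1, of the same family, from 386 ± 21.5 to 1264 ± 573 (1.604, adjusted p = 0.00574). Nrp2, a co-receptor of class 3 semaphorins, rose from 274 ± 33.0 to 855 ± 185 (1.62, adjusted p = 4.82e-04), and Unc5c, a netrin receptor, from 199 ± 63.5 to 694 ± 266 (1.76, adjusted p = 0.0122). The groups of all 4 lay apart. Robo1, Robo2 and Nrp2 were called under 20 of 21 alternatives and Unc5c under 18, and the name-style covariate, which leaves mutant 6 against the controls, ended all 4 calls, with adjusted p from 0.0784 for Robo2 to 1.0 for Unc5c. The log2 fold changes were then 1.36 for Robo2, 1.16 for Nrp2, 0.83 for Robo1 and 0.79 for Unc5c. It also ended the calls of Pik3r1 at 0.45, Dusp4 at 1.48 and Etv5 at -1.17, of which the last pair stayed close to their values without it. Markers of interneurons from the caudal ganglionic eminence (CGE) differed in these libraries too: the summed level of 6 markers was 1533 to 1912 in controls and 2272 to 3022 in mutants, with Adarb2 higher and Htr3a and Npas1 lower (limma), and their part in the receptor changes was not tested. Of the same 16 receptors in the Mtg8 table, 0 passed by limma, with 0 at an unadjusted p under 0.05 and a median of -0.15.

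**Figure D5:**
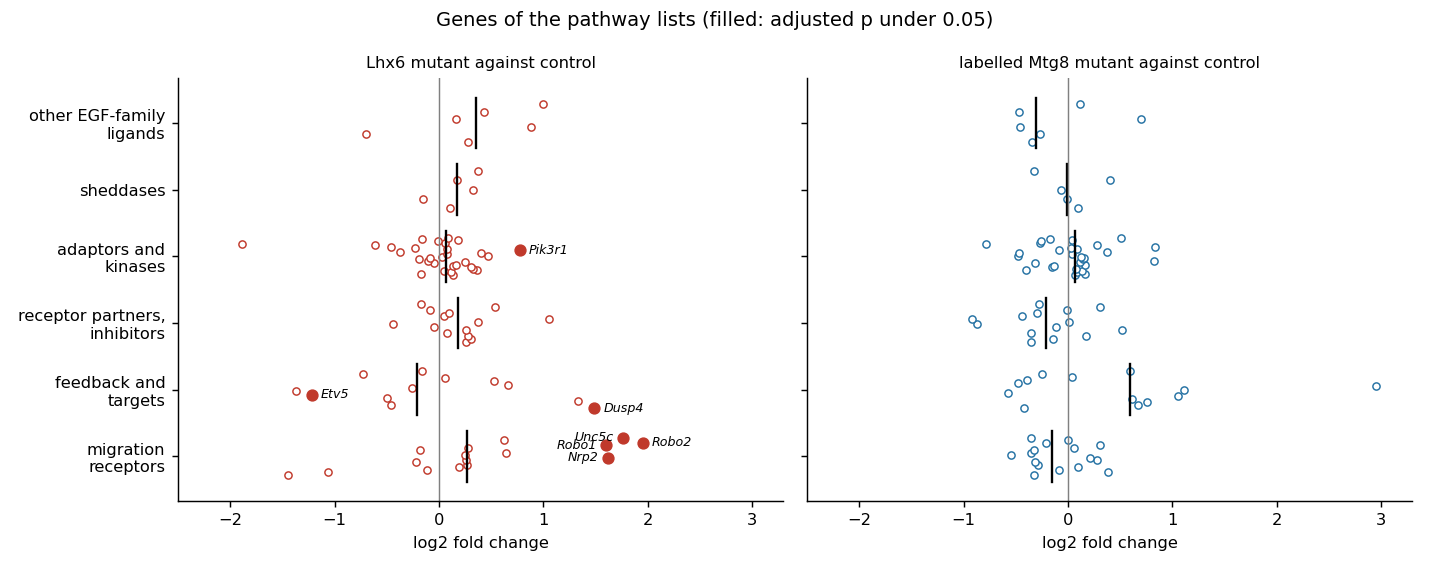
Log2 fold change of each tested gene of the 6 pathway lists, with Lhx6 mutants on the left and libraries labelled Mtg8 mutant on the right; filled points are past an adjusted p of 0.05 (limma), and bars are list medians. The 7 filled genes are all in the Lhx6 table, where 1.71% of all genes tested were called against 0% in the Mtg8 table, and 4 of them are migration receptors.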

How the data were processed

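Counts of single 75-base reads were made by the authors from YFP+ cells of single embryos with fastp 0.20.1, STAR 2.7b and featureCounts 1.6.4 on GRCm38.p6 with GENCODE M23, with sex-linked genes filtered. The deposited values are DESeq2 normalized counts (a signal per gene), 1 table for each mutant, beside the authors' own fold changes and p-values, which were not used. Dividing by the value of 1 read gave whole reads for 100% of values within 0.01. Tests used limma 3.58.1 with a trend (R 4.3.3) after log2 transformation with a pseudocount of 1, keeping genes whose mean reached 10, two-sided, with Benjamini-Hochberg adjustment over all genes tested and a threshold of 0.05. The fold changes are on that scale and understate changes of low genes. Recovered reads were also tested with DESeq2 1.42.0 and with edgeR 4.0.16, both alternatives, as were pseudocounts of 0.5 and 10, other filters and scalings, and leaving out each library. Exact permutation tests were two-sided. The scripts were tested on simulated data. The members and lists were chosen with earlier results of these data known. Named genes were all members, the pathway genes past the threshold or else with the smallest p in each list, and the 3 genes most like Erbb4 and Nrg1, the members with a mean of at least 100 in both tables. Other names are said where they stand to have been chosen after their values were seen, or serve as marks of cell types. Promoters came from RefSeq (2 shown), and the counting of strand is not given in the sources used here.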

Additional observations from a re-analysis of the deposited data

Results flagged for a closer look

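In the Lhx6 controls, Nrg2 in control 3 stood apart at 12.9 normalized counts, with the next library at 6.2. In the Lhx6 mutants, Nrg2 in mutant 1 stood apart at 60.6, with the next at 23.1. Egfr in Lhx6 mutant 1 was at 6.19, with the next at 1.24. Erbb3 in Lhx6 mutant 2 was at 0.926, which is 1 read, with 0 in the other mutants. These were 4 of 16 groups of values looked at, where chance flags about 1 in 20. That rate does not hold for groups with few reads. A group with reads in only 1 library, as for Erbb3 here, is always flagged, so no excess can be read from this count. The log2 fold change of Nrg1 was -0.48 for Lhx6 mutants and 0.87 for libraries labelled Mtg8 mutant, opposite in direction, and the difference was not tested.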

How the results depend on the processing

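Under each alternative 0 members were called in either table. In the Mtg8 table the 87 alternative values that could be fitted kept the direction of their member. Without control 1, at 19.0 its highest control, Nrg4 fell under the filter and had no value. With 1 library left out there, Erbb4 was -0.67 to -0.42, Nrg1 0.68 to 1.18, Erbb2 0.57 to 1.26, Nrg3 -0.72 to -0.33 and Nrg4 -0.52 to -0.19. Of those in the Lhx6 table, 97 held and 26 reversed, all for Erbb4, Erbb2, Nrg3 and Nrg4, and the cause was not tested. Erbb2 was 0.0287 with a pseudocount of 10, 0.29 with edgeR and 0.28 with DESeq2, and -0.47 to 0.35 with 1 library left out. Nrg4 was 0.0117, 0.16 and 0.17 under those settings, 0.34 with the replicate block, and -0.34 to 0.26 with 1 library left out. Erbb4 was -0.0114 with TMM factors, -0.0314 with equal totals and -0.82 with name style as a covariate, and -0.11 to 0.24 with 1 library left out. Nrg3 was -0.91 with name style, and -0.22 to 0.36 with 1 library left out. Same-numbered libraries did not count as pairs, since correlations of their deviations were -0.154, 0.00175 and 0.0717 in the Lhx6 table, where only number 2 was best with its own number, and 0.138 and 0.159 in the Mtg8 table, where both numbers were best with their own but there were only 2 pairs. With the replicate block the log2 fold change in the Mtg8 table was -0.47 for Erbb4 and 0.77 for Nrg1, and the number of all genes called went from 286 to 86 in the Lhx6 table and from 0 to 100 in the Mtg8 table. Other settings called 57 genes (name style) to 811 (DESeq2) in the Lhx6 table, 140 at an adjusted p under 0.01, and 159 (without control 1), 174 (without control 2), 173 (without control 4) or 492 (without mutant 6) with a library left out. In the Mtg8 table edgeR and no filter each called 1, a mean of at least 50 called 2, DESeq2 31, and leaving out a library 0 to 87, the latter without labelled mutant 2. Depth limits Erbb2, Erbb3, Egfr, Nrg2 and Nrg4, which had few reads per library. For Erbb2 these were 12 to 13 in Mtg8 controls and 14 to 56 in the labelled mutants.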
